A study of Mus musculus with 2 samples.

Results

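The 10 genes described here belong to 3 trophic signalling systems and were measured in laser-captured mouse Purkinje cells: Shh with Ptch1, Smo and Gli1, the neurotrophins Bdnf and Ntf3 with the receptors Ntrk2, Ntrk3 and Ngfr, and the growth factor Igf1. They were taken by symbol, and all 10 were found among the 43346 mouse genes of the quantification. Purkinje cells are the GABAergic output neurons of the cerebellar cortex. The series holds 1 group, wild-type male C57Bl6 mice (strain B6NCrl) aged 8 months, with 2 libraries called pool 2 and pool 1 after their biological replicate numbers. Each library came from 50 cells, with ERCC spike-in RNA added and RNA over 200 nt sequenced. Both pools carry the same donor identifier and different biosample identifiers, so the spread between them may not be that between animals. The labels link a Smart-seq protocol to pool 2 and none to pool 1, whose library method is not stated in the sources used. With 1 group there is no contrast to test, so levels, their spread over the pools (mean ± SD, n = 2 unless stated) and their order are given with no p-value.

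Sonic hedgehog (Shh) is a secreted ligand that Purkinje cells make. It binds Patched 1 (Ptch1), which lifts the block that Ptch1 puts on Smoothened (Smo), and Smoothened then acts through the Gli transcription factors, of which Gli1 is, like Ptch1, itself a target gene of the pathway. In the developing mouse cerebellum this signal drives the division of granule cell precursors, and in the adult it acts on Bergmann glia, the astrocytes that wrap Purkinje cells. The neurotrophins BDNF and NT-3 (Bdnf, Ntf3) bind the receptor kinases TrkB and TrkC (Ntrk2, Ntrk3), and the receptor p75 (Ngfr) binds all neurotrophins and their precursors. Truncated TrkB lacks the kinase and is the form known from astrocytes. Insulin-like growth factor 1 (Igf1) acts through the kinase Igf1r, and its binding proteins (Igfbp genes) hold it outside the cell.

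The libraries held 27907662 expected counts (estimated reads per gene) in pool 2 and 23830685 in pool 1. Spike-in RNA made up 0.940% of pool 2 and 1.40% of pool 1 by counts. All 10 listed Purkinje cell markers were detected, which here means a TPM (a share of transcripts, corrected for transcript length) of at least 1 in both pools, and their TPM summed to 38261 in pool 2 and 38476 in pool 1. The pools also held RNA of other cell types. All 13 markers of Bergmann glia and astrocytes were detected, with a summed TPM of 4722 in pool 2 and 4504 in pool 1, although 9 of the 13 were lower in pool 2 and their median log2 ratio of pool 2 over pool 1 was -0.28. Detected too were 6 of 8 granule cell markers (summed TPM 149.9 in pool 2 and 116 in pool 1), 6 of 6 of molecular layer interneurons (71.2 and 53.8 in the same order, with 3 higher and 3 lower in pool 2), 6 of 6 of oligodendrocytes (213 and 218), 5 of 8 of microglia (33.3 and 20.7), 1 of 3 of Golgi or glycinergic neurons, 0 of 2 of oligodendrocyte precursors and 6 of 6 of endothelial cells and pericytes (136 and 108). The interneuron sum was higher in pool 2 through Prkcd (38.65 TPM in pool 2 and 9.83 TPM in pool 1), while Kit and Nxph1 were lower there. Most of the endothelial and pericyte sum was Ly6c1 (89.85 TPM in pool 2 and 62.66 TPM in pool 1). Blood markers summed to 2274 TPM in pool 2 and 651 in pool 1, the largest relative difference between the pools among these lists. Of the blood markers, Alas2 was lower in pool 2 (1.43 TPM, against 2.22 TPM in pool 1). Which cells in the pools carried each of the 10 genes was not tested, and fewer cells of a type cannot be told apart from less RNA per cell in such pools.

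Of the 10 genes, 7 were detected: Igf1, Ntrk2, Ptch1, Ntrk3, Smo, Shh and Bdnf. Among all mouse genes 28.8% were detected, and among protein-coding genes 51.7%. Gli1, Ntf3 and Ngfr were under a TPM of 1 in at least 1 pool. Igf1, Ntrk2, Ptch1 and Ntrk3 lay above the median of detected protein-coding genes, with 65.4%, 61.4%, 60.2% and 53.3% of those genes below them. Smo had 36.9% below it, while Shh with 10.99% and Bdnf with 5.87% were among the lowest detected genes.

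**Figure D1:**
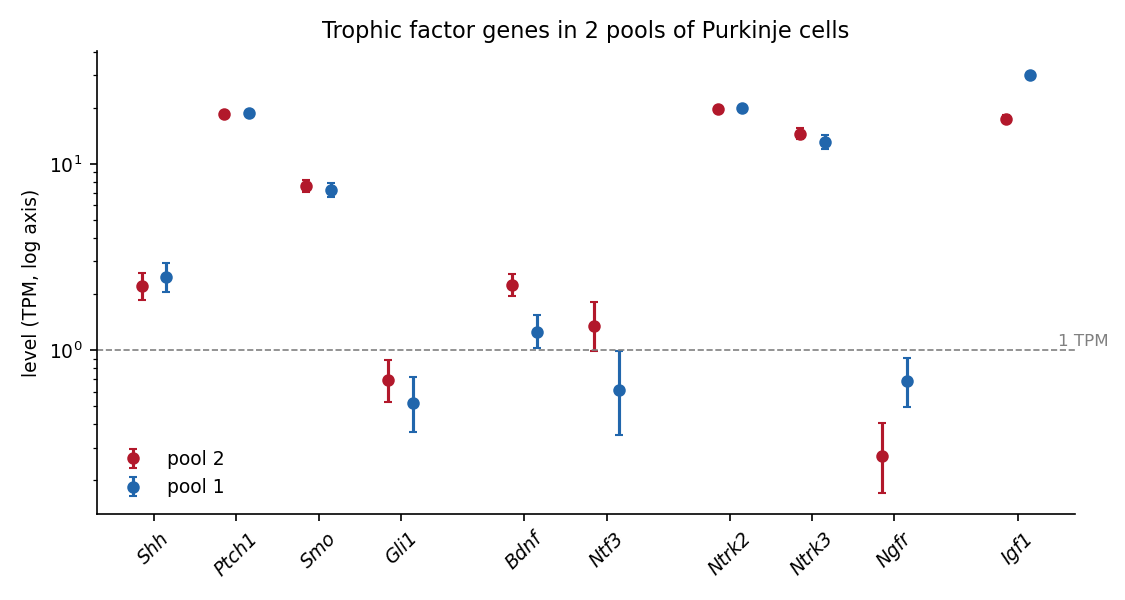
Levels of the 10 genes in pool 2 and pool 1 (TPM, log axis), with points for the pools and bars for exact Poisson 95% counting intervals. Igf1, Ntrk2, Ptch1, Ntrk3 and Smo lay above 7 TPM in both pools and Shh, Bdnf, Ntf3, Gli1 and Ngfr under 3. On the log axis the gap between the pools was widest for Ngfr, then Ntf3, Bdnf and Igf1.

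In mean TPM the order was Igf1, Ntrk2, Ptch1, Ntrk3, Smo, Shh, Bdnf, Ntf3, Gli1 and Ngfr. The ranges of the pools did not overlap between Ntrk2 and Ptch1, Ptch1 and Ntrk3, Ntrk3 and Smo, or Smo and Shh. They overlapped between Igf1 and Ntrk2 at the top, and between each gene and the next from Shh down to Ngfr. The order of these neighbours is therefore not separated from the spread between the pools. The range of Igf1 (17.49 to 30.1 TPM) also took in that of Ptch1 (18.59 to 18.82 TPM), and in pool 2 Igf1 lay below both Ntrk2 and Ptch1.

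Hedgehog signalling was represented mainly by its receptor side. The ligand gene Shh (ENSMUSG00000002633, chromosome 5, 28456815 to 28467256, minus strand, GRCm38) had 2.20 TPM in pool 2 and 2.47 TPM in pool 1, from 143 and 127 expected counts in the same order, a mean of 2.34 ± 0.191 TPM. The pools lay within each other's 95% counting intervals (1.85 to 2.59 TPM in pool 2 and 2.06 to 2.94 TPM in pool 1). Shh is overlapped on the opposite strand by the long noncoding RNA gene Gm26894, at 3.74 TPM in pool 2 and 4.86 TPM in pool 1. Fractional counts at both genes show that reads were divided in the estimation, and whether the quantification used strand was not stated, so the level of Shh is less certain than its counts alone allow. Shh held 99.1% of the summed TPM of the 3 hedgehog ligand genes in pool 2 and 100% in pool 1. Ihh had 1 count in pool 2 and none in pool 1, and Dhh had none in either pool, which allows up to 0.0527 TPM in pool 2 and 0.0668 TPM in pool 1 (3 counts, counting error only).

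Ptch1 (chromosome 13, 63508328 to 63573598, minus strand) had 18.6 TPM in pool 2 and 18.8 TPM in pool 1, from 3188 and 2578 counts, a mean of 18.7 ± 0.163 TPM. It was among the steadiest of the 10, with a log2 ratio of pool 2 over pool 1 of -0.017 (such ratios are on the log2(TPM + 1) scale unless stated). Its level was 8.45 times that of Shh in pool 2 and 7.62 times in pool 1.

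The Ptch1 transcripts differ in where the protein starts. Ptch1-202, with 3891 coding bases, held 89.2% of the gene's TPM in pool 2 and 88.6% in pool 1 (88.9% ± 0.438), from 2881 and 2284 counts. Ptch1-201, with 4302 coding bases, held 1.97% in pool 2 and 2.86% in pool 1. Coding in Ptch1-202 starts 411 bases into the coding sequence of Ptch1-201, at the ATG in capitals below, so the leading transcript encodes the shorter N-terminus. The stretch is chr13:63548094-63548141, minus strand, GRCm38, from the Ptch1-201 transcript.
Ptch1-201: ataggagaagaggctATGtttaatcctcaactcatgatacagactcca
Another transcript, Ptch1-204, annotated for nonsense-mediated decay, held 6.22% in pool 2 and 7.10% in pool 1.

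Smo (chromosome 6, 29735503 to 29761365, plus strand), the signal transducer that Ptch1 blocks, had 7.58 TPM in pool 2 and 7.24 TPM in pool 1, a mean of 7.41 ± 0.240 TPM from 702 and 529 counts. The counting intervals of the pools overlapped (7.03 to 8.16 TPM in pool 2 and 6.64 to 7.88 TPM in pool 1). Ptch1 stood at 2.45 times Smo in pool 2 and 2.60 times in pool 1.

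Gli1 (chromosome 10, 127329882 to 127341974, minus strand) had 0.69 TPM in pool 2 and 0.52 TPM in pool 1, from 62 and 37 counts. Both pools were under the detection threshold, and their intervals overlapped (0.529 to 0.885 TPM in pool 2 and 0.366 to 0.717 TPM in pool 1). Of the pathway's 2 direct target genes among the 10, Ptch1 was thus at 26.9 times the level of Gli1 in pool 2 and 36.2 times in pool 1. Among the Gli genes the largest share was that of Gli3, known mainly as a repressor of the pathway, with 1.77 TPM in pool 2 and 2.46 TPM in pool 1, or 59.2% and 73.2% of the summed TPM of the 3 genes. Gli2, an activator, had 0.53 TPM in pool 2 and 0.38 TPM in pool 1.

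Of 28 other hedgehog pathway genes, 13 were detected, beside 28.8% of all mouse genes and 51.7% of protein-coding ones. Over those 13 the median mean TPM was 3.63, against 10.6 over all detected mouse genes. The highest were general regulators with many other substrates: the kinase genes Csnk1a1 (94.8 TPM in pool 2 and 117 TPM in pool 1) and Gsk3b (76.1 and 101 TPM in the same order) and the ubiquitin ligase adaptor gene Spop (58.8 and 63.6 TPM). Gas1, a co-receptor for Shh, had 21.7 TPM in pool 2 and 31.0 TPM in pool 1 and so stood above Ptch1 in each pool. None of the 15 listed genes with a mean of 1 TPM or more differed by 1.5-fold or more between the pools, while 4.26% of all genes at that level were higher in pool 2 by that much and 7.24% were lower. The median log2 ratio of these 15 genes was -0.31, against -0.07 over all genes at that level. This comparison was not matched for length, and among genes of the level and length of Ptch1 the median ratio was -0.37.

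Listed genes known to depend on hedgehog signalling in Bergmann glia of the adult mouse were at high levels. Slc1a3, Aqp4 and Kcnj10 of this list are also on the list of Bergmann glia and astrocyte markers. In which cells these genes were made, and whether their levels here depend on hedgehog signalling, was not tested. All 5 listed genes were detected, at a median mean TPM of 78.2. The glutamate transporter gene Slc1a3 had 852 TPM in pool 2 and 1083 TPM in pool 1, and the water channel gene Aqp4 had 55.9 TPM in pool 2 and 75.3 TPM in pool 1. The AMPA receptor subunit genes Gria4 (75.4 TPM in pool 2 and 125 TPM in pool 1) and Gria1 (62.3 and 94.1 TPM in the same order) were each lower in pool 2 past 1.5-fold. All 5 had a lower TPM in pool 2, with a median log2 ratio of -0.44, which was not set against genes of like length. The log2 ratios of Ptch1, Smo and Gli1 were -0.017, 0.06 and 0.15, and whether the pools differ in glial content was not tested.

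The neurotrophin ligand genes were low. Bdnf (chromosome 2, 109674700 to 109727007, plus strand) had 2.24 TPM in pool 2 and 1.26 TPM in pool 1, from 211 and 97 counts, a mean of 1.75 ± 0.693 TPM. Pool 2 stood at 1.78 times pool 1, with a counting interval of 1.39 to 2.29 for the ratio, and the intervals of the pools did not overlap (1.95 to 2.56 TPM in pool 2 and 1.02 to 1.54 TPM in pool 1). On the log2(TPM + 1) scale the ratio was 0.52, within 1.5-fold, and 9.90% of 3848 mouse genes within 2-fold of its mean level had a ratio as high or higher. Among the 1404 of these whose length was also within 1.5-fold of its own, 3.42% did.

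Bdnf has many transcripts that start at different upstream exons and encode mostly the same precursor. Of 11 in the quantification, 5 had counts. Bdnf-211 held 55.5% of the gene's TPM in pool 2 and 21.8% in pool 1, from 113 and 20 counts. Bdnf-209 held 6.69% in pool 2 and 35.1% in pool 1, from 15 and 34 counts, so the leading transcript differed between the pools. Bdnf-205 held 26.0% in pool 2 and 25.4% in pool 1. With so few counts and shared coding sequence, the split between transcripts is less certain than the gene's level.

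Ntf3 (chromosome 6, 126101412 to 126166910, minus strand) had 1.35 TPM in pool 2 and 0.61 TPM in pool 1, from 45 and 16 counts. Pool 2 was at 2.21 times pool 1, with a counting interval of 1.23 to 4.19 for the ratio. Pool 2 was over the detection threshold and pool 1 under it, and the intervals overlapped narrowly (0.985 to 1.81 TPM in pool 2 and 0.349 to 0.991 TPM in pool 1). Ntf5, which encodes the other TrkB ligand NT-4, had no counts, which allows up to 0.0640 TPM in pool 2 and 0.0812 TPM in pool 1.

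The receptor kinase genes stood well above their ligands. Ntrk2 (chromosome 13, 58806569 to 59133970, plus strand) had 19.8 TPM in pool 2 and 19.9 TPM in pool 1, from 3533 and 2803 counts, a mean of 19.8 ± 0.0707 TPM and the smallest spread of the 10. Ntrk3 (chromosome 7, 78175959 to 78738012, minus strand) had 14.5 TPM in pool 2 and 13.2 TPM in pool 1, from 844 and 551 counts, a mean of 13.8 ± 0.976 TPM. Ntrk2 was at 8.83 times Bdnf in pool 2 and 15.8 times in pool 1, and Ntrk3 at 10.8 times Ntf3 in pool 2 and 21.6 times in pool 1. The differences between the pools in both ratios lay in the ligands.

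The 2 Ntrk2 transcripts of the annotation separate truncated from full-length TrkB. They share 1393 coding bases. Ntrk2-202 (1428 coding bases) then runs through 35 bases of its own to its stop, leaving out the kinase, and Ntrk2-201 (2463 coding bases) goes on for 1070 bases that hold the kinase. The branch point is shown because it tells the forms apart: lower case is the last shared sequence, and capitals are bases of the named transcript only, all of them for Ntrk2-202 and the first 36 for Ntrk2-201 (GRCm38, plus strand, exons spliced from chr13:58878233-58932057 for Ntrk2-202 and from chr13:58878233-58985837 for Ntrk2-201).
Ntrk2-202: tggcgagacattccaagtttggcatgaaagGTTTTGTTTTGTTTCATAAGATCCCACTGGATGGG
Ntrk2-201: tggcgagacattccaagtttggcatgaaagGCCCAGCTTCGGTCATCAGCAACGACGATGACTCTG

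The truncated form was the major one in both pools. Ntrk2-202 had 17.2 TPM in pool 2 and 17.2 TPM in pool 1, which was 87.2% of the gene's TPM in pool 2 and 86.6% in pool 1 (86.9% ± 0.410), from 2995 and 2357 counts. Full-length Ntrk2-201 had 2.53 TPM in pool 2 and 2.66 TPM in pool 1, or 12.8% and 13.4% (13.1% ± 0.410), from 538 and 446 counts. The forms lay far apart relative to the spread between the pools. As a share of expected counts, with no correction for length, the truncated form held 84.8% in pool 2 and 84.1% in pool 1. Full-length Ntrk2 alone was close to the level of Bdnf in pool 2 and above it in pool 1. The astrocyte and Bergmann glia markers had a median mean level of 89.2 TPM and a median log2 ratio of -0.28, and their part in the truncated share was not tested.

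**Figure D2:**
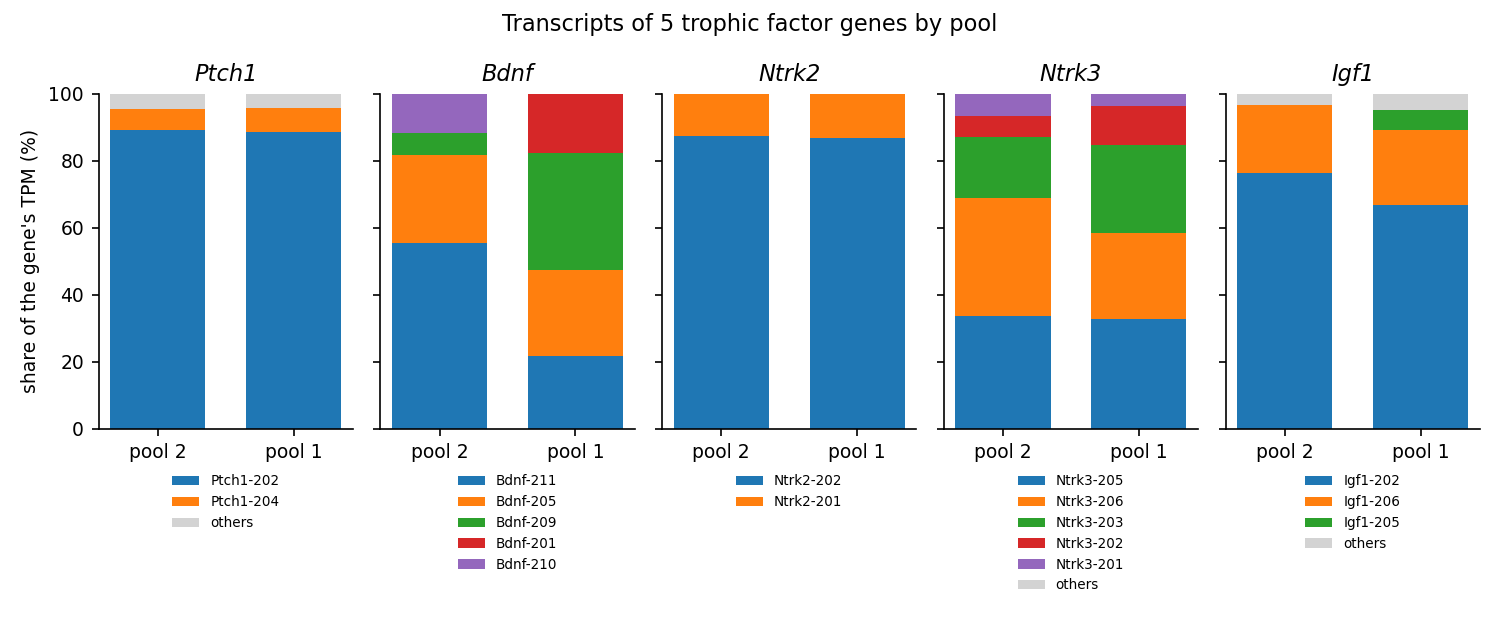
Share of each transcript in its gene's TPM (percent, stacked bars from 0) in pool 2 and pool 1 for the 5 genes with counts at several transcripts, with minor transcripts joined as others. The truncated Ntrk2-202 held 87.2% in pool 2 and 86.6% in pool 1. For Bdnf the leading transcript differed between the pools. It also differed for Ntrk3, but narrowly in pool 2 (Ntrk3-206 at 35.4% and Ntrk3-205 at 33.5%).

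In Ntrk3 most of the level came from transcripts that encode a full-length receptor. The 3 transcripts of full coding length held 75.6% of the gene's TPM in pool 2 and 62.2% in pool 1. Of these, 2 carry an insert in the kinase domain, a kind of TrkC variant known from the rat, and Ntrk3-201 does not. The inserts, absent from Ntrk3-201, are in capitals between 15 bases of shared sequence on each side (GRCm38, minus strand, exons spliced from chr7:78198937-78247169). That of Ntrk3-206 (117 bases) contains that of Ntrk3-205 (42 bases) at its end.
Ntrk3-205: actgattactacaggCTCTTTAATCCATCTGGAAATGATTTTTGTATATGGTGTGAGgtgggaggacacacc
Ntrk3-206: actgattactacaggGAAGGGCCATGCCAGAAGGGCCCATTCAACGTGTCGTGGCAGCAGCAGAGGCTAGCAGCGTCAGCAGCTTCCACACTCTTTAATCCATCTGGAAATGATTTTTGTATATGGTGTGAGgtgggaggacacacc

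Ntrk3-205 held 33.5% of the gene's TPM in pool 2 and 32.7% in pool 1, from 316 and 220 counts. Ntrk3-206 held 35.4% in pool 2 and 25.7% in pool 1, from 347 and 180 counts, so that the transcripts with an insert together held 69.0% in pool 2 and 58.4% in pool 1. Ntrk3-201, without an insert, held 6.66% in pool 2 and 3.77% in pool 1. Its model in the files is 3300 nt long, against 19703 nt in the later annotation release used for names, and whether this lowers its count was not tested. Ntrk3-202, whose coding sequence leaves the shared one after 1585 bases and ends 251 bases on, held 6.27% in pool 2 and 11.5% in pool 1, and its model in the files (2337 nt) is also shorter than in the later release (3977 nt). The noncoding Ntrk3-203 held 17.97% in pool 2 and 26.4% in pool 1. It is 868 nt long, and its TPM share rests on 51 counts in pool 2 and 53 in pool 1, which is 5.99% and 9.60% of the gene's counts. With these models, the form with a shorter coding sequence held the smaller share of Ntrk3 in both pools.

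Ngfr (chromosome 11, 95568818 to 95587735, minus strand), which encodes p75, had 0.27 TPM in pool 2 and 0.68 TPM in pool 1, from 23 and 45 counts. Both pools were under the detection threshold, at a mean of 0.475 ± 0.290 TPM. Pool 2 was at 0.397 times pool 1 (counting interval 0.229 to 0.670), and the intervals of the pools did not overlap (0.171 to 0.405 TPM in pool 2 and 0.496 to 0.910 TPM in pool 1). Among 3590 mouse genes within 2-fold of its mean level, 14.7% had a log2 ratio as low or lower, and among the 1055 of these of like length it was 7.87%.

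Of 24 other neurotrophin pathway genes, 16 were detected, beside 28.8% of all mouse genes and 51.7% of protein-coding ones. Over those 16 the median mean TPM was 7.31, against 10.6 over all detected mouse genes. The highest were genes whose proteins bind p75 or sort neurotrophins: Bex3 (462 TPM in pool 2 and 394 TPM in pool 1), Maged1 (118 and 116 TPM in the same order) and Sorl1 (93.8 and 119 TPM). Their levels contrast with that of Ngfr itself. Bex1 (45.8 TPM in pool 2 and 26.4 TPM in pool 1) and Cadps2 (12.4 and 7.81 TPM), which promotes the release of BDNF from mouse granule cells, were higher in pool 2 past 1.5-fold. Sort1 (12.4 TPM in pool 2 and 20.2 TPM in pool 1), a co-receptor of p75 for neurotrophin precursors, and Kidins220 (14.9 and 25.2 TPM), a scaffold of the Trk receptors, were lower. These 4 were of 17 listed genes with a mean of 1 TPM or more, beside shares over all such genes of 4.26% higher and 7.24% lower. Bex1 and Bex3 had fractional counts, so reads were shared with other genes in the estimation and their values are less certain.

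Igf1 (chromosome 10, 87858265 to 87937042, plus strand) had the highest mean of the 10 and the largest SD in TPM. It had 17.5 TPM in pool 2 and 30.1 TPM in pool 1, from 2407 and 2918 counts, a mean of 23.8 ± 8.92 TPM. The counting intervals were far apart (16.8 to 18.2 TPM in pool 2 and 29.0 to 31.2 TPM in pool 1), so counting error does not cover the difference. Its log2 ratio of -0.75 made it the only gene of the 10 past 1.5-fold on this scale, and none was past it in the other direction. By the plain ratio of TPM, with no pseudocount, Bdnf, Ntf3 and Ngfr were past 1.5-fold as well. Each of these differed more than Igf1, for which pool 1 was at 1.72 times pool 2. On the log2(TPM + 1) scale, 1 of the 7 members at a mean TPM of at least 1 was lower, against a background of 7.24%, and 0 were higher, against 4.26%.

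**Figure D3:**
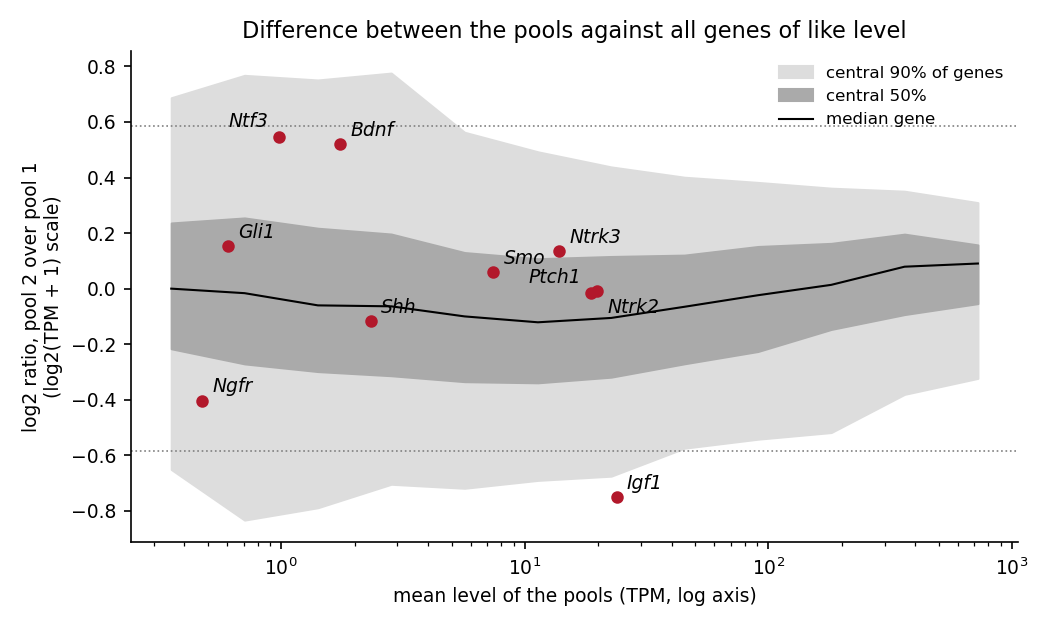
Log2 ratio of pool 2 over pool 1 (from TPM + 1) against mean TPM (log axis) for the 10 genes, with the median of all mouse genes at each level as a line, their central 50% and 90% shaded, and dotted lines at 1.5-fold. Igf1 at -0.75 lay beyond the lower line, Bdnf at 0.52 and Ntf3 at 0.55 just inside the upper one, and Ptch1, Smo and Ntrk2 close to 0.

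The Igf1 difference took other sizes under other scalings, and genes of like length also tended to be lower in pool 2. Among 3493 mouse genes within 2-fold of its mean level, 2.92% had a log2 ratio as low or lower and the median ratio was -0.10. Among the 658 of these whose length was also within 1.5-fold of its own, 6.23% were as low or lower and the median ratio was -0.32. Taken from counts scaled by edgeR's TMM factors, which changes the scale and drops the length correction together, the Igf1 ratio was -0.52 and within 1.5-fold, and scaled by the spike-ins, which adds 0.68 to the log2 TPM ratio of every gene, it was -0.10. Ptch1 and Ntrk2, of like level and also long, lay above the median of genes of their own level and length. That median was -0.37 for both, while their own ratios were -0.017 and -0.0069. Of such genes, 11.98% were as high or higher for Ptch1 and 10.3% for Ntrk2.

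Igf1-202, a transcript of 7052 nt, held nearly all Igf1 counts: 96.98% in pool 2 and 94.95% in pool 1. By TPM it had 13.3 in pool 2 and 20.1 in pool 1, which was 76.3% and 66.7% of the gene's TPM. The 3 transcripts under 1000 nt made up 3.65 TPM in pool 2 and 8.53 TPM in pool 1, from 50 and 99 counts. A small number of reads assigned to short models therefore carried a sizeable part of the TPM. The mean transcript length in the estimate was 5568 nt in pool 2 and 4984 nt in pool 1.

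Igf1 held 94.3% of the summed TPM of Igf1 and Igf2 in pool 2 and 93.8% in pool 1. Its receptor gene Igf1r had 3.81 TPM in pool 2 and 8.20 TPM in pool 1. It was also lower in pool 2 past 1.5-fold, a difference that was not set against genes of like length. The ratio of Igf1 to Igf1r was 4.59 in pool 2 and 3.67 in pool 1, so the ligand gene stood above its receptor gene, the reverse of the order of Bdnf and Ntrk2. The insulin receptor gene Insr had 4.82 TPM in pool 2 and 3.76 TPM in pool 1, and Igf2r, which clears Igf2, had 3.09 TPM in pool 2 and 4.59 TPM in pool 1.

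Of 25 other genes of the Igf system, 18 were detected, beside 28.8% of all mouse genes and 51.7% of protein-coding ones. Over those 18 the median mean TPM was 6.10, against 10.6 over all detected mouse genes. The highest was Igfbp6, a binding protein with a preference for Igf2, at 42.5 TPM in pool 2 and 35.9 TPM in pool 1. Igfbp3, a main carrier of Igf1 in blood, had 19.2 TPM in pool 2 and 19.8 TPM in pool 1. The kinase subunit genes Pik3ca (15.7 TPM in pool 2 and 19.3 TPM in pool 1) and Pik3r1 (15.1 and 18.9 TPM) act downstream of the receptor. Of the 18 genes, 3 were lower in pool 2 past 1.5-fold and 1 was higher, where 7.24% and 4.26% of all genes at that level were.

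Among 26 genes of other trophic factors and receptors, 18 were detected, beside 28.8% of all mouse genes and 51.7% of protein-coding ones. Over those 18 the median mean TPM was 8.03, against 10.6 over all detected mouse genes. The highest were Manf (234 TPM in pool 2 and 203 TPM in pool 1), a factor of the endoplasmic reticulum, the midkine gene Mdk (150.3 and 122 TPM in the same order), the pleiotrophin gene Ptn (92.5 and 103 TPM) and the prosaposin gene Psap (54.1 and 57.7 TPM). Each of these 4 had a higher level in each pool than any of the 10 genes described here. Of the 18 genes of that list with a mean of 1 TPM or more, 2 were lower in pool 2 past 1.5-fold and 0 were higher, counts near the shares of 7.24% and 4.26% over all such genes.

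**Figure D4:**
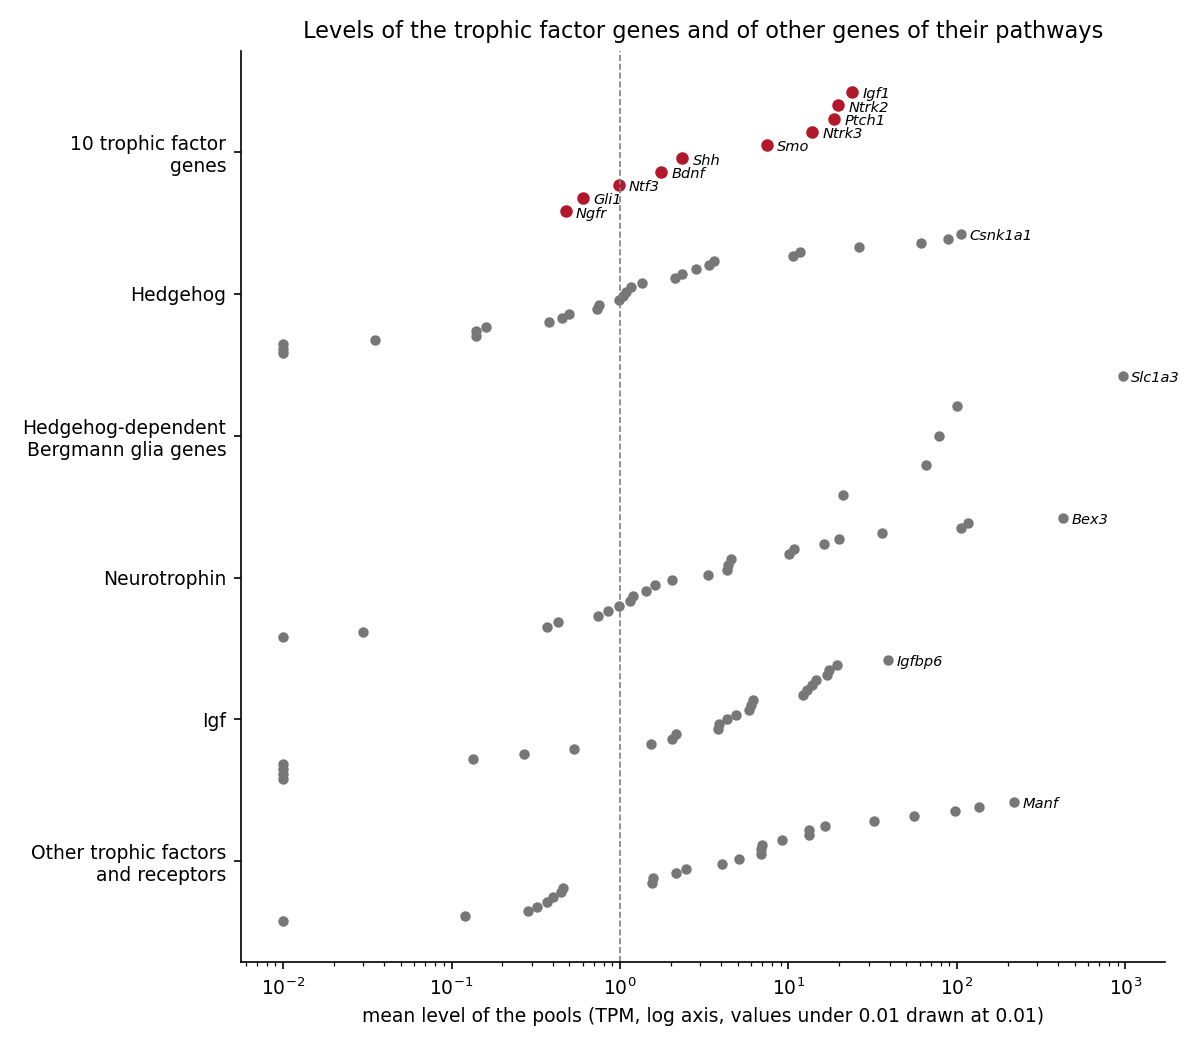
Mean level over the 2 pools (TPM, log axis, values under 0.01 drawn at 0.01) of the 10 genes in red and of the other listed genes of their pathways in grey, 1 point a gene, spread within each row in order of level, with the highest of each list named and a dashed line at 1 TPM. The highest genes of every list lay above Igf1, the highest of the 10.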

How the data were processed

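RNA-seq of 2 pools of 50 laser-captured Purkinje cells, replicates of 1 group, was used. Per the file headers and notes, the authors' quantification used alignments to the transcriptome (mm10, GENCODE M4). Aligner, quantifier and strand setting are not given in the sources used here. Expected counts, as deposited, are unnormalized read estimates. TPM, as deposited, sums to 1000000 in each library with spike-ins counted in. Isoform shares are the deposited percent of a gene's TPM.

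Symbols, coordinates, coding regions and sequences came from GENCODE M21 (GRCm38). Unnamed numeric entries (26248) were left out. A gene was detected at 1 TPM or more in both pools. Ratios between pools are of log2(TPM + 1), which understates ratios of low genes, and shares of genes past 1.5-fold cover those with a mean of 1 TPM or more, while shares among genes of like level cover all mouse genes in that range. Intervals for counts (exact Poisson, 95%) cover counting error alone, because reads were not tied to molecules by identifiers. The pools differed beyond sampling noise (chi-square per degree of freedom of 40.0 over 17208 genes, Pearson r of 0.986 across 22727 genes, which are not independent replicates) and were kept as 2 replicates. No test between conditions was possible. Rounded expected counts were scaled by TMM in edgeR 4.0.16 and by DESeq2 1.42.0 size factors (R 4.3.3), checked on simulated data. Python 3.11.15, pandas 2.3.3, scipy 1.17.1 and matplotlib 3.10.9 were used.

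The members and lists were chosen with earlier results of these data known. Named beside the 10 members are the 4 genes of each pathway list with the highest mean TPM, paralogs of members, and listed genes past 1.5-fold with a mean of 10 TPM or more. Results of some of these genes are left out of the text. Marker lists are given as sums. Alternatives were other thresholds, pseudocounts, scalings and filters, count shares, and each pool alone.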

Additional observations from a re-analysis of the deposited data

How the results depend on the processing

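The levels rest on 1 group and 2 pools, so no p-value stands behind any statement, and no paired analysis was possible because the labels give a single group. Leaving out replicate 1 or replicate 2 leaves the other pool's value, given above. Depth limits Gli1, Ntf3 and Ngfr most. Without length correction, the mean level in CPM (read counts scaled to library total) was 5.30 for Shh, 113 for Ptch1, 24.0 for Smo, 1.91 for Gli1, 5.88 for Bdnf, 1.15 for Ntf3, 124 for Ntrk2, 27.0 for Ntrk3, 1.37 for Ngfr and 106 for Igf1. By CPM, 40 of the 45 pairs of genes kept their order. Ntrk2 and Ptch1 then stood above Igf1, Bdnf above Shh, and Gli1 and Ngfr above Ntf3. Rescaling TPM over mouse genes alone gave 19.1 for Ptch1 and 20.3 for Ntrk2. Log2 ratios of pool 2 over pool 1 moved as follows. With the spike-ins as the scale they were 0.38 for Shh, 0.63 for Ptch1, 0.67 for Smo, 0.47 for Gli1, 1.02 for Bdnf, 0.97 for Ntf3, 0.64 for Ntrk2, 0.78 for Ntrk3, -0.23 for Ngfr and -0.10 for Igf1. With a pseudocount of 0.1 they were 0.78 for Bdnf, 1.03 for Ntf3 and -1.08 for Ngfr, and with 0.5 they were 0.74 for Ntf3 and -0.62 for Ngfr. Under TMM and DESeq2 size factors on counts, the ratios are of log2(CPM + 1), so the added 1 stands against other units than in the reported ratios. By library total, Ngfr had 0.83 CPM in pool 2 and 1.92 CPM in pool 1, against 0.27 and 0.68 TPM. Under TMM and DESeq2 the ratios were 0.081 and 0.078 for Ntrk2, and Igf1 was at -0.52 and -0.53. Both gave 0.35 for Ntrk3 and -0.68 for Ngfr. The number of the 10 genes lower in pool 2 past 1.5-fold, 1 by the reported setting, was 2 with either pseudocount and 0 on the spike-in scale. TMM and DESeq2 gave 1 as well, but Ngfr in place of Igf1. The number higher, 0 as reported, was 2 with either pseudocount and under TMM and DESeq2, and 6 on the spike-in scale. The 2 genes were Bdnf and Ntf3 under each of these 4 settings. Bdnf was at 0.64 with a pseudocount of 0.5, 0.74 under TMM and 0.73 under DESeq2. Ntf3 was at 0.64 under TMM and 0.63 under DESeq2. At thresholds of 0.5 and 5 TPM, 9 and 5 of the 10 genes were detected, against 7 at 1 TPM. By share of counts, truncated Ntrk2 held 84.4% and full-length Ntrk2 15.6%. The causes of these shifts, other than what each setting changes, were not tested.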
